A study of Mus musculus with 6 samples.

Results

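The transcripts described here are those of 50 mouse genes of DNA replication and the cell cycle. The genes were chosen by name from the textbook machinery, with earlier results of these data known. They were found by matching the transcripts of the deposited tables to a gene annotation. All 50 were among the 52609 annotated genes that had transcripts in the tables. By role, 16 regulate the passage from G1 into S phase, 15 license, fire or feed DNA replication, and 19 act in G2 and mitosis. They were measured by RNA-seq in epiblast stem cells, the primed pluripotent cells derived from the dissected epiblast of the mouse embryo. Both groups of 3 libraries were given FGF2 at 10 ng/mL, the WNT secretion inhibitor IWP2 at 5 µM and SB431542, an inhibitor of the Activin/Nodal receptors, at 2 µM; 1 group was also given Activin A at 20 ng/mL and the other was not. SB431542 was therefore present in the Activin A group too. A layer of inactivated mouse embryonic fibroblasts fed the cells, so RNA of the feeder cells can be in every library. The labels give neither strain nor age. They do not say whether the 3 libraries of a group came from separate cultures, so the spread behind each p-value is that of these libraries and may be technical. The design text speaks of a pair of lines, and a difference between lines cannot be told apart from that between media. A label of replicate 1 of the group without Activin A names Activin A as a growth factor, and the treatment text names it for all samples, so results are also given without that library.

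A cell enters S phase when D-type cyclins with CDK4 or CDK6, and then E-type cyclins with CDK2, phosphorylate the retinoblastoma protein and its relatives and so free the E2F factors. E2F factors switch on the genes of replication origins, nucleotide supply and the S phase cyclins. Later, the MuvB complex with B-MYB and FOXM1 switches on the genes of mitosis, many of which carry a CCAAT box and a cell cycle genes homology region near their start. Mouse pluripotent cells are known for short G1 phases and high levels of much of this machinery.

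The libraries held between 9946521 and 16350923 reads assigned to transcripts, the fewest in replicate 3 with Activin A. All 10 markers of epiblast stem cells that were looked up were present, among them Pou5f1, which encodes OCT4, at a mean of 374 CPM (read counts scaled to a library's total) with and 121 CPM without Activin A. Of these 10, 2 rose and 8 fell. All 16 fibroblast markers looked up were also present, Lum the lowest with at least 16 reads per library. Their summed level was 762 to 838 CPM with and 941 to 953 CPM without Activin A; 3 rose, 7 fell and 6 did not pass the test. The feeders' part in the results below was not tested.

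Without Activin A, the G1 kinase gene Cdk6 fell 2.21-fold, the D-type cyclin genes Ccnd2 and Ccnd3 rose, and 10 of 19 genes of mitosis rose by up to 1.20-fold, while 14 of 15 replication genes had estimates within 10% of no change. Throughout, a change is the level without minus the level with Activin A, and a gene rose or fell when edgeR's quasi-likelihood test gave an adjusted p under 0.05 over all 15448 genes tested. Of the 50 genes, 15 rose, 3 fell and 32 did not pass. Among all genes tested, 29.2% passed, 14.0% higher and 15.2% lower. Most of the members are abundant transcripts, and of the 4570 genes whose mean was 50 CPM or more, 32.6% passed, 22.4% higher and 10.2% lower. On leaving out replicates 1, 2 and 3 without Activin A in turn, 8, 7 and 7 members rose, and without replicate 3 with Activin A 22 rose and 5 fell. Over all genes tested, 2155 rose and 2350 fell with all libraries. On leaving out replicates 1, 2 and 3 without Activin A, 1518, 1483 and 1494 of all genes rose. Without replicate 3 with Activin A, 2808 of all genes rose and 2881 fell. The median log2 change was 0.09 over the 50 members and 0.0012 over all genes. Groups did not overlap for 28 members, 22 higher and 6 lower, against 42.9% of all genes (21.3% higher, 21.6% lower). In libraries made from whole cultures, fewer cells in a phase and less RNA per cell cannot be told apart.

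**Figure D1:**
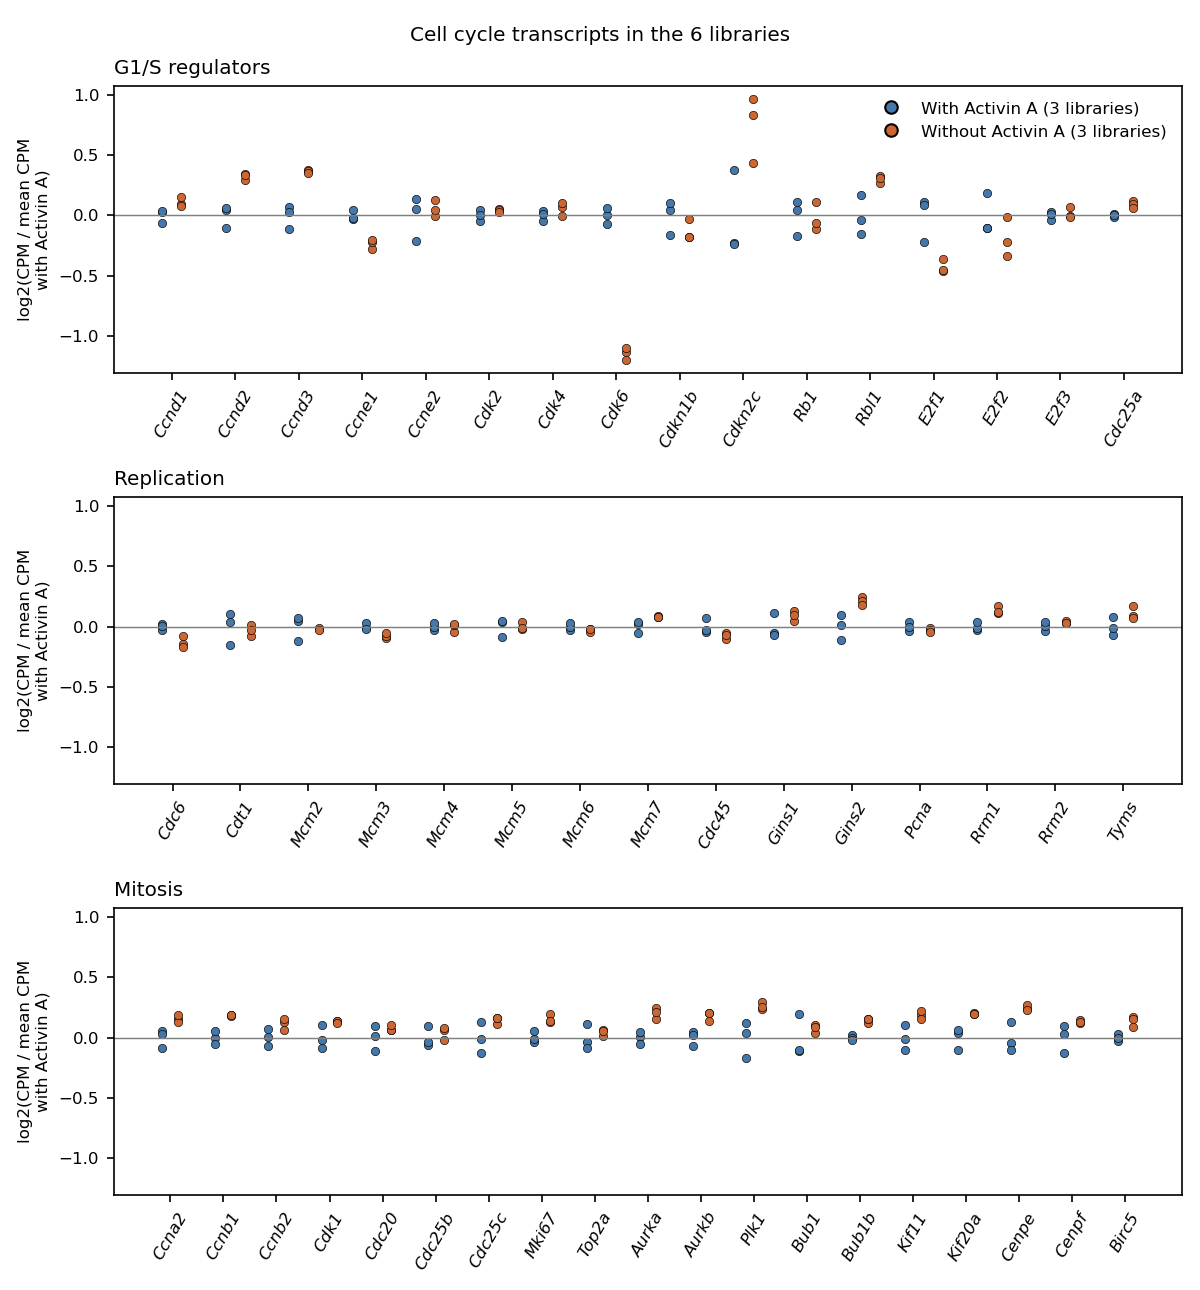
Level of each of the 50 genes in each library, as the log2 of its CPM over the mean CPM of the 3 libraries with Activin A (vertical axis), by role; blue points are libraries with and orange points libraries without Activin A. Cdk6 lies more than 1 log2 unit below its mean with Activin A in all 3 libraries without it, replication genes lie near 0, and the orange points of the 19 mitosis genes lie mostly above 0.

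A few promoters are printed here so that the letters known from these classes of genes can be read beside the values that follow. Of the 50 genes, 39 had an entry among RefSeq promoter windows of the mouse build GRCm38.p6, with 44 windows of 300 bases, 250 before and 50 after the start of transcription. Both strands were searched for each motif. The cell cycle genes homology region was searched only as TTTGAA, so variants of these letters were not counted. The box bound by NF-Y was searched by the letters of its name, CCAAT. An E2F site was taken as any of TTTCCCGC, TTTGGCGC, TTTCGCGC and TTTGCCGC, which can overlap each other on opposite strands. The homology region was in 10 of the 15 windows of mitosis genes (66.7%) and in 17.9% of all 32851 windows. CCAAT was in 14 of those 15 (93.3%) and in 37.4% of all. The E2F letters were in 6 of 13 windows of replication genes (46.2%), in 5 of 16 of G1/S regulators (31.2%), in 1 of 15 of mitosis genes, that of Cdk1, and in 2.265% of all. A match of letters is a description and not a site shown to be bound.

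The 150 bases before the start are shown 5′ to 3′ on the strand of the gene, with the searched letters in capitals, for 4 mitosis genes. Kif11 (chr19:37376232-37376381, plus strand), Mki67 (chr7:135716380-135716529, minus strand) and Cdk1 (chr10:69352913-69353062, minus strand) hold the homology region and CCAAT on one strand or the other. Ccnb1 (chr13:100786487-100786636, minus strand) holds 2 CCAAT boxes and no TTTGAA. On the opposite strand a CCAAT box reads ATTGG. The homology region then reads TTCAAA. The stretches of Ccnb1 and Cdk1 lie partly inside the genes as annotated for counting, which start at 100786570 and 69352938 on the minus strand.
Kif11: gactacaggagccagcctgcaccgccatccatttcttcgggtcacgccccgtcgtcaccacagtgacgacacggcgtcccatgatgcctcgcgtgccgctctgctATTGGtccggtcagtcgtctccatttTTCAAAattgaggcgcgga
Mki67: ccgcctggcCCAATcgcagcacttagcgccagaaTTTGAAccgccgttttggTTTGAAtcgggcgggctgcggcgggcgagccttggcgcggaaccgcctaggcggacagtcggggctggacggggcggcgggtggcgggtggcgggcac
Ccnb1: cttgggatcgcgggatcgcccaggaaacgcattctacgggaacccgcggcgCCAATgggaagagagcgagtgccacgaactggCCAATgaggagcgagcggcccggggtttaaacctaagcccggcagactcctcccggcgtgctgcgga
Cdk1: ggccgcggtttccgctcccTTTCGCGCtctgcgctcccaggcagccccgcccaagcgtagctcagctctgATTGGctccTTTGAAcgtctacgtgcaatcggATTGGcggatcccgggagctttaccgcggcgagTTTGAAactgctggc

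Genes with E2F letters are shown the same way: Rbl1 (chr2:157204535-157204684, minus strand), which rose, and the origin genes Mcm6 (chr1:128359706-128359855, minus strand) and Cdc6 (chr11:98908001-98908150, plus strand), which did not pass the test. In Mcm6 the first run of capitals is a pair of E2F matches that overlap on opposite strands. The promoter windows use RefSeq starts, and the Cdc6 stretch lies wholly inside the gene as annotated for counting, 98907801 to 98923940.
Rbl1: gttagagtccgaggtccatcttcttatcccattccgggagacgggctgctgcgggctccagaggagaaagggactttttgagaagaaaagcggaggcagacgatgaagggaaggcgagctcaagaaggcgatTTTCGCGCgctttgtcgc
Mcm6: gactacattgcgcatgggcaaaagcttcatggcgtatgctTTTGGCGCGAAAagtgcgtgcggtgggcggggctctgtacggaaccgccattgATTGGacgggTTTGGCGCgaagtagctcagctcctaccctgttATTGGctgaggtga
Cdc6: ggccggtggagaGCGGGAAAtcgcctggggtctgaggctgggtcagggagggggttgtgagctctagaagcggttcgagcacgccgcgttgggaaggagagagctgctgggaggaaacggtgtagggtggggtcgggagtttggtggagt

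The homology region was in 5 of the 7 windows of mitosis genes that rose and in 5 of the 8 windows of those that did not pass.

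Among the G1/S regulators, 3 genes rose (Ccnd2, Ccnd3 and Rbl1), 3 fell (Cdk6, E2f1 and Ccne1) and 10 did not pass, with a median log2 change of 0.05. That is 18.75% in each direction, beside 14.0% of all genes tested that rose and 15.2% that fell. At a mean of 50 CPM or more, 22.4% of genes rose and 10.2% fell. Cdk6, a kinase partner of the D-type cyclins (chromosome 5, 3341485 to 3531008, GRCm38, plus strand), was at 95.5, 100.3 and 104.7 CPM with Activin A and at 43.5, 45.5 and 46.7 CPM without. The 3 libraries without Activin A lay far below the others, without overlap. The log2 change was -1.14 ± 0.059 (SE), 2.21-fold lower (edgeR, adjusted p = 2.54e-09), the largest change among the members and one that kept its call in all 17 alternative analyses. Cdk6 overlaps the annotated genes Gm42435 and Gm17590 on the opposite strand, and Cdk4 overlaps Tspan31. Cdk4, which binds the same cyclins, was at 307, 325 and 319 CPM with and 332, 340.0 and 317 CPM without Activin A. Its groups overlapped, with a log2 change of 0.06 (95% interval -0.05 to 0.16, edgeR, adjusted p = 0.435).

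Per length, in TPM, a level scaled by transcript length and library, Cdk4 was the more abundant kinase by far, at 436 ± 21.2 TPM against 20.96 ± 1.63 TPM for Cdk6 with Activin A (SD, n = 3). The share of Cdk6 in the summed TPM of both genes was 5.07, 4.46 and 4.25% with Activin A and 2.30, 2.24 and 1.92% without. These groups did not overlap, and an exact permutation test gave p = 0.1, the smallest that 3 against 3 libraries allow. Salmon had placed 45.5% of the TPM of Cdk4 and 30.3% of that of Cdk6 on transcripts shorter than 500 bases, where a level per length is least certain. On transcripts of at least 500 bases, a restriction chosen after seeing the data, the share of Cdk6 was 5.89% with and 2.64% without. The summed TPM of both kinases was 457 ± 21.02 with and 463 ± 26.3 without Activin A.

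The D-type cyclins, the growth factor sensors that activate those kinases, were measured one by one. Ccnd2 was at 97.4, 88.0 and 98.6 CPM with and 116, 120.5 and 119.7 CPM without Activin A. It rose 1.26-fold (log2 0.33 ± 0.056 SE, edgeR, adjusted p = 4.53e-04). The size of this rise depended on the unit: the mean TPM of Ccnd2 was 10.00 ± 1.28 with and 17.3 ± 1.88 without (SD, n = 3), and the log2 change was 0.74 by limma-trend on TPM and 0.78 with a length offset. On transcripts of at least 500 bases its mean TPM was 10.00 ± 1.28 with and 14.3 ± 2.38 without. Shorter ones held 35.7, 0 and 13.4% of its TPM without Activin A and 0% in each library with it. Ccnd3 (chromosome 17, 47505051 to 47599691, plus strand) was at 166, 161 and 146 CPM with and 204, 204 and 201 CPM without. All 3 libraries without Activin A were above all 3 with it in both genes. Ccnd3 rose 1.29-fold (log2 0.36 ± 0.054 SE, edgeR, adjusted p = 1.28e-04), and its log2 change was 0.57 by limma-trend on TPM and 0.55 with a length offset. Ccnd3 overlaps Bysl on the opposite strand, and whether the counting used strand is not stated. Ccnd1 was at 94.6, 89.0 and 95.1 CPM with and 99.1, 98.0 and 103.4 CPM without. Its groups did not overlap, but the log2 change of 0.11 (95% interval -0.01 to 0.22) did not pass (edgeR, adjusted p = 0.149). Without replicate 3 of the Activin A group it did. As a share of the TPM of the 3 D-type cyclins, Ccnd1 was at 11.7, 10.4 and 12.6% with and 9.18, 9.90 and 8.99% without Activin A, again without overlap. Of the TPM of Ccnd3, 61.5% was on transcripts shorter than 500 bases, so its place as the most abundant of the 3 per length rests partly on them. On transcripts of at least 500 bases its share was 66.4% with and 67.5% without.

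**Figure D2:**
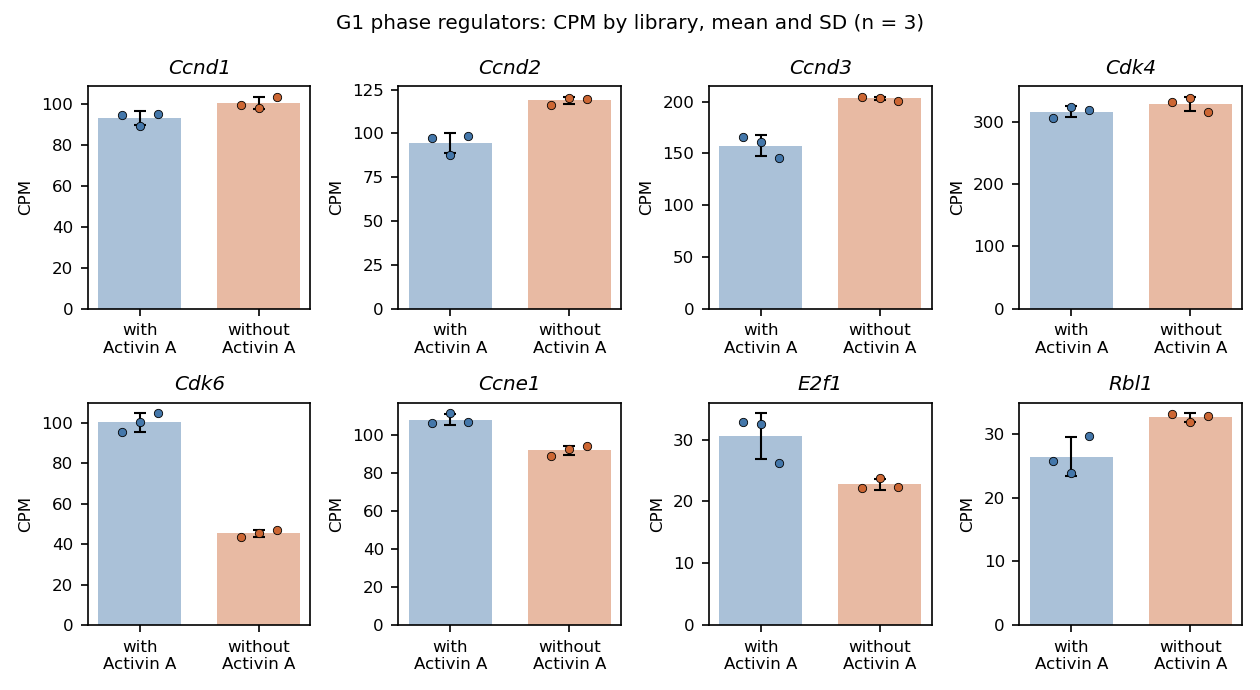
CPM of 8 G1 phase regulators in each library (points), with bars for the group mean and error bars for the SD (n = 3), with and without Activin A; the vertical axes start at 0. The bar of Cdk6 without Activin A is less than 0.5 of the bar with it, the bars of Ccnd2, Ccnd3 and Rbl1 are higher without, and those of E2f1 and Ccne1 lower.

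Downstream of the kinases, E2f1, an activator E2F, was at 32.9, 32.5 and 26.2 CPM with and 22.2, 23.8 and 22.4 CPM without Activin A. It fell 1.35-fold (log2 -0.44 ± 0.087 SE, edgeR, adjusted p = 0.00163), with no overlap between groups and replicate 3 the lowest with Activin A. The other activators did not pass: E2f2, with means near the low end of the members, had a log2 change of -0.20 (95% interval -0.64 to 0.25), and E2f3 one of 0.02 (-0.10 to 0.14). E2f1 made up 52.1, 51.4 and 46.5% of the TPM of the 3 activators with and 40.1, 42.9 and 42.3% without Activin A. Ccne1, the E-type cyclin that activates CDK2, was at 106, 111 and 106.5 CPM with and 89.1, 92.4 and 93.9 CPM without. It fell 1.18-fold (log2 -0.23 ± 0.052 SE, edgeR, adjusted p = 0.00343). Its paralog Ccne2 had a log2 change of 0.06 (95% interval -0.16 to 0.28) and their kinase Cdk2 one of 0.04 (-0.07 to 0.16).

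Of the pocket proteins that hold E2F factors in check, Rbl1, which encodes p107, was at 25.7, 23.8 and 29.7 CPM with and 33.1, 31.8 and 32.8 CPM without Activin A. The lowest library without was above the highest with, and Rbl1 rose 1.24-fold (log2 0.31 ± 0.080 SE, edgeR, adjusted p = 0.00854). Rb1, which encodes the retinoblastoma protein, had overlapping groups at 22.7 to 27.5 CPM with and 23.7 to 27.6 CPM without, a log2 change of -0.01 (95% interval -0.20 to 0.18). The share of its reads on the main coding transcript, Rb1-201, did not overlap between groups. Rb1-201 held 89.4, 85.0 and 86.5% with and 79.5, 74.3 and 78.4% without Activin A (exact permutation p = 0.1, the smallest possible). Such shares of the leading transcript did not overlap in 18.4% of 6988 genes compared alike. Rb1 overlaps the annotated genes Mir687 and Gm17233 on its own strand and Rcbtb2 and Lpar6 on the opposite strand. Rb1-206, a transcript of 408 bases annotated as not coding, held 7.32 ± 1.55% with and 14.0 ± 1.04% without (SD, n = 3). In TPM the share of Rb1-206 overlapped between groups, at 44.5, 54.7 and 51.1% with and 67.1, 52.8 and 56.7% without Activin A. Rb1 was called higher by limma-trend on TPM (log2 change 0.69) and with a length offset (0.71), but not when the trend with GC content and length was removed (-0.05).

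The G1 inhibitors among the members, Cdkn1b and Cdkn2c, did not pass. Cdkn1b, which encodes p27, had a log2 change of -0.12 (95% interval -0.28 to 0.03). It passed as lower when replicate 2 with Activin A was left out and when the GC and length trend was removed. Cdkn2c, which encodes the CDK4 and CDK6 inhibitor p18, was at 0.798 to 1.22 CPM with and 1.27 to 1.84 CPM without. It had as few as 8 reads in a library, and its log2 change of 0.73 came with a 95% interval of 0.11 to 1.34 (edgeR, adjusted p = 0.0748). With the GC and length trend removed, Cdkn2c passed as higher. Cdc25a, the phosphatase that activates CDK2, had a log2 change of 0.10 (-0.01 to 0.20). The calls of Cdk6, Ccnd2 and Ccnd3 held in all 17 alternatives. That of Ccne1 was lost with limma-trend on TPM and with a length offset, where its log2 change shrank to -0.08 and -0.10. Rbl1 lost its call in the same analyses at log2 changes of 0.32 and 0.36, about the size above, and over all 17 alternatives ranged from 0.24 to 0.39. E2f1 lost its call with limma-trend at -0.35 and ranged from -0.53 to -0.35.

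Of the 15 replication genes, 2 rose (Gins2 and Rrm1, 13.3%), none fell by edgeR, and 13 did not pass. Among all genes tested, 14.0% rose and 15.2% fell, and among those with a mean of 50 CPM or more 22.4% and 10.2%. Of the 15 estimates, 14 were changes of less than 10%, and the median log2 change was -0.0044. The summed CPM of the 15 was 2923, 2991 and 2891 with and 2952, 2969 and 2954 without Activin A, so the groups overlapped. The subunits Mcm2 to Mcm7 of the replicative helicase, loaded at origins in G1, had log2 changes from -0.08 (Mcm3) to 0.08 (Mcm7). The 95% intervals of all 6 lay between -0.17 and 0.18. Mcm6, for example, was at 400.5, 407 and 416 CPM with and 401, 396 and 403 CPM without, with overlapping groups. The loading factors had log2 changes of -0.13 for Cdc6 (95% interval -0.24 to -0.02, edgeR, adjusted p = 0.0725) and -0.03 for Cdt1 (-0.17 to 0.11). Cdc6 did not overlap between groups, at 94.7 to 97.7 CPM with and 85.5 to 91.2 CPM without, and passed as lower when replicate 3 with Activin A was left out, as did Mcm3.

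The 2 replication genes that rose act in helicase activation and nucleotide supply. They make up 13.3% of the 15, near the 14.0% of all genes tested that rose. Gins2, a subunit of the GINS complex that activates the helicase, was at 52.5, 55.5 and 48.1 CPM with and 61.9, 60.2 and 59.1 CPM without Activin A. All libraries without it were higher, by 1.16-fold (log2 0.21 ± 0.063 SE, edgeR, adjusted p = 0.0205). Gins1 had a log2 change of 0.10 (95% interval -0.05 to 0.25) and Cdc45, their partner, one of -0.08 (-0.20 to 0.05). Rrm1, the large subunit of ribonucleotide reductase, was at 309.6, 313 and 323 CPM with and 340.2, 354 and 343 CPM without. It rose 1.10-fold (log2 0.13 ± 0.046 SE, edgeR, adjusted p = 0.0414), without overlap. Its small subunit Rrm2 had a log2 change of 0.04 (-0.06 to 0.13), Tyms, which makes thymidylate, one of 0.11 (-0.02 to 0.25), and Pcna, the sliding clamp, one of -0.03 (-0.13 to 0.07). With a length offset the log2 changes were 0.07 for Gins2 and 0.06 for Rrm1. Gins2 lost its call in 7 of 17 alternatives and Rrm1 in 10, both of them on leaving out replicate 1 with Activin A or any library without it, and Rrm1 also on leaving out replicate 2 with Activin A. Mcm7 and Pcna share 26.8 and 23.3% of their 31-base words with other annotated genes, so some of their reads could be split by the counting.

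**Figure D3:**
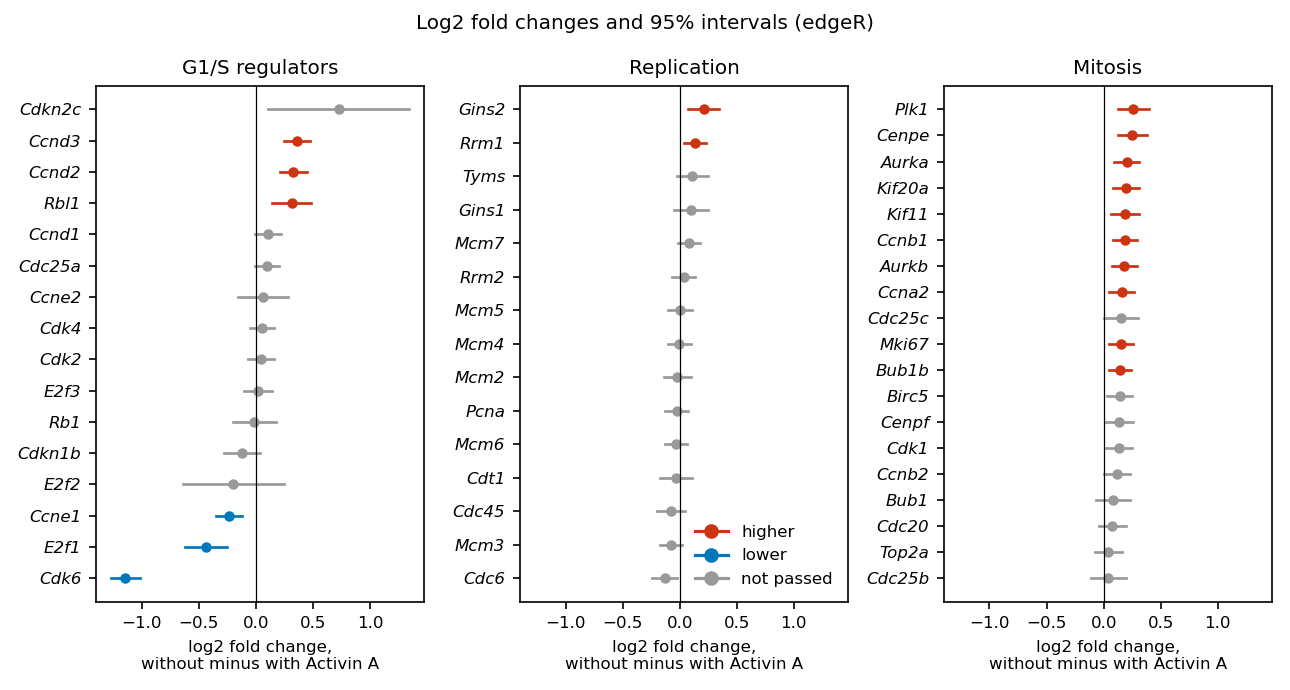
Log2 change of each of the 50 genes, without minus with Activin A (horizontal axis, points), with its 95% interval (lines) from edgeR, in 3 panels by role; red marks genes that rose, blue those that fell and grey those that did not pass an adjusted p of 0.05. Cdk6 stands apart at -1.14, replication genes lie between -0.13 and 0.21, and all 19 mitosis genes lie to the right of 0, between 0.04 and 0.26.

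Among the 19 mitosis genes 10 rose and none fell, and all 19 estimates were above 0, with a median log2 change of 0.15 and a range of 0.04 to 0.26. Beside that, 50.2% of all genes tested had an estimate above 0 and 14.0% rose. Of the genes with a mean of 50 CPM or more, 22.4% rose. Groups did not overlap in 13 of the 19, all higher without Activin A, against 21.3% of all genes tested that were higher without overlap. The summed CPM of the 19 was 4944, 4843 and 5098 with and 5340, 5480 and 5444 without Activin A, and these groups did not overlap. The changes were small, at most 1.20-fold. The count of 10 varied with the libraries used. It was 8, 6 and 16 without replicates 1, 2 and 3 of the Activin A group. On leaving out replicates 1, 2 and 3 of the other group it was 5, 4 and 4. Over all genes tested 2155 rose with all libraries. In the same order, 1692, 1780 and 2808 of all genes rose, then 1518, 1483 and 1494. With replicate 3 of the Activin A group and the doubtfully labelled library both left out, 15 mitosis genes and 2366 of all genes rose. With limma-trend on TPM 1 mitosis gene and 778 of all genes rose, and with a length offset 5 and 1057. In those 2 analyses, and when the trend with GC content and length was removed, 17 of the 19 estimates were above 0; in the other 14 alternatives all 19 were.

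Of the mitotic kinase genes Plk1, Aurka, Aurkb and Cdk1, the first 3 rose and Cdk1 did not pass. Plk1, the polo-like kinase that drives mitotic entry and spindle assembly (chromosome 7, 122159439 to 122169873, plus strand), was at 207, 219.7 and 179 CPM with and 237, 248 and 241 CPM without Activin A. Replicate 3 was the lowest with Activin A, and no library with it reached the lowest without. Plk1 rose 1.20-fold (log2 0.26 ± 0.064 SE, edgeR, adjusted p = 0.00666) and was the only mitosis member to keep its call in all 17 alternatives. Aurka, the spindle pole kinase, was at 128, 132 and 123 CPM with and 142, 151 and 148 CPM without, 1.15-fold higher (edgeR, adjusted p = 0.0075). Aurkb, the kinase of the chromosomal passenger complex, rose 1.13-fold or 0.18 on the log2 scale (edgeR, adjusted p = 0.0122). Its partner Birc5, survivin, did not overlap between groups at 115 to 119.9 CPM with and 125 to 132 CPM without, but its log2 change of 0.14 (95% interval 0.03 to 0.25) missed the threshold (edgeR, adjusted p = 0.0504). Cdk1, the kinase at the centre of mitotic entry, was at 186.5, 195 and 213 CPM with and 218, 218 and 215 CPM without. Its log2 change of 0.13 (0.02 to 0.25) did not pass (edgeR, adjusted p = 0.0762).

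Of the cyclins of these kinases, Ccnb1 was at 338, 325 and 351 CPM with and 385, 383 and 386 CPM without Activin A. Each library without it was above each library with it, by 1.14-fold (log2 0.19 ± 0.047 SE, edgeR, adjusted p = 0.00789). Ccnb1 shares 27.7% of its 31-base words with other annotated genes, chiefly the pseudogene Ccnb1-ps. Ccna2, the cyclin of S phase and G2, rose 1.11-fold (257 to 283 against 299 to 311 CPM, edgeR, adjusted p = 0.0297). Ccnb2 had a log2 change of 0.11 (95% interval 0.0001 to 0.23) and overlapping groups. The phosphatases that activate CDK1 did not pass, with log2 changes of 0.04 for Cdc25b (-0.11 to 0.19) and 0.15 for Cdc25c (0.01 to 0.30).

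Among motors and kinetochore proteins, Cenpe, Kif20a, Kif11 and Bub1b rose. Cenpe, the kinesin that carries chromosomes to the spindle equator, was at 126, 121 and 142 CPM with and 153, 157 and 152 CPM without Activin A. It rose 1.19-fold (log2 0.25 ± 0.060 SE, edgeR, adjusted p = 0.00547). Kif20a, a kinesin of cytokinesis, rose 1.15-fold (188 to 211 against 231 to 233 CPM; adjusted p = 0.0109 by edgeR) and Kif11, the motor that parts the spindle poles, 1.14-fold (173 to 199 against 206 to 216 CPM, edgeR, adjusted p = 0.0200). The checkpoint gene Bub1b rose 1.10-fold (220.5 to 227 against 242 to 249 CPM, edgeR, adjusted p = 0.0301). Its partner Bub1 overlapped between groups: replicate 3 with Activin A stood at 203 CPM, while replicates 1 and 2 were at 164 and 165 CPM and the other group at 182 to 190.3 CPM. Bub1 had a log2 change of 0.08 (95% interval -0.07 to 0.23), Cenpf, a kinetochore protein, one of 0.13 (0.01 to 0.26), and Cdc20, which activates the anaphase-promoting complex, one of 0.07 (-0.04 to 0.19).

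Mki67, which coats mitotic chromosomes and is widely used as a mark of proliferation, was at 499.8, 469 and 476 CPM with and 525, 553 and 528 CPM without. It rose 1.11-fold (log2 0.15 ± 0.048 SE, edgeR, adjusted p = 0.0272). Top2a, the topoisomerase that untangles sister chromosomes, was the highest member in CPM, at 1348, 1307 and 1500.0 with and 1397, 1444 and 1437 without. Its groups overlapped, again through replicate 3 with Activin A, and its log2 change was 0.04 (95% interval -0.08 to 0.16). On leaving out that replicate, Cdk1, Cdc25c, Bub1, Cenpf, Birc5 and Top2a also passed as higher.

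The calls of the other mitosis genes that rose differed in how well they held. Of 17 alternatives, Ccnb1 kept its call in 16, Cenpe in 15, Aurka in 14, Aurkb and Kif20a in 13, Ccna2 in 11, Kif11 in 10, and Mki67 and Bub1b in 8. Leaving out replicate 2 without Activin A ended the calls of Aurka and Aurkb, leaving out replicate 3 those of Aurkb and Kif20a, and leaving out replicate 1 that of Kif20a. Ccna2, Mki67, Kif11 and Bub1b lost theirs on leaving out any library without Activin A or replicate 2 with it, and Kif11 and Bub1b also without replicate 1 with it. With a length offset the log2 change of Cenpe was 0.13 in place of 0.25 and that of Bub1b 0.33 in place of 0.14. That of Mki67 was 0.02 in place of 0.15 once the GC and length trend was taken out. All 18 members that passed kept the direction of their change in every one of the 17 alternatives.

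**Figure D4:**
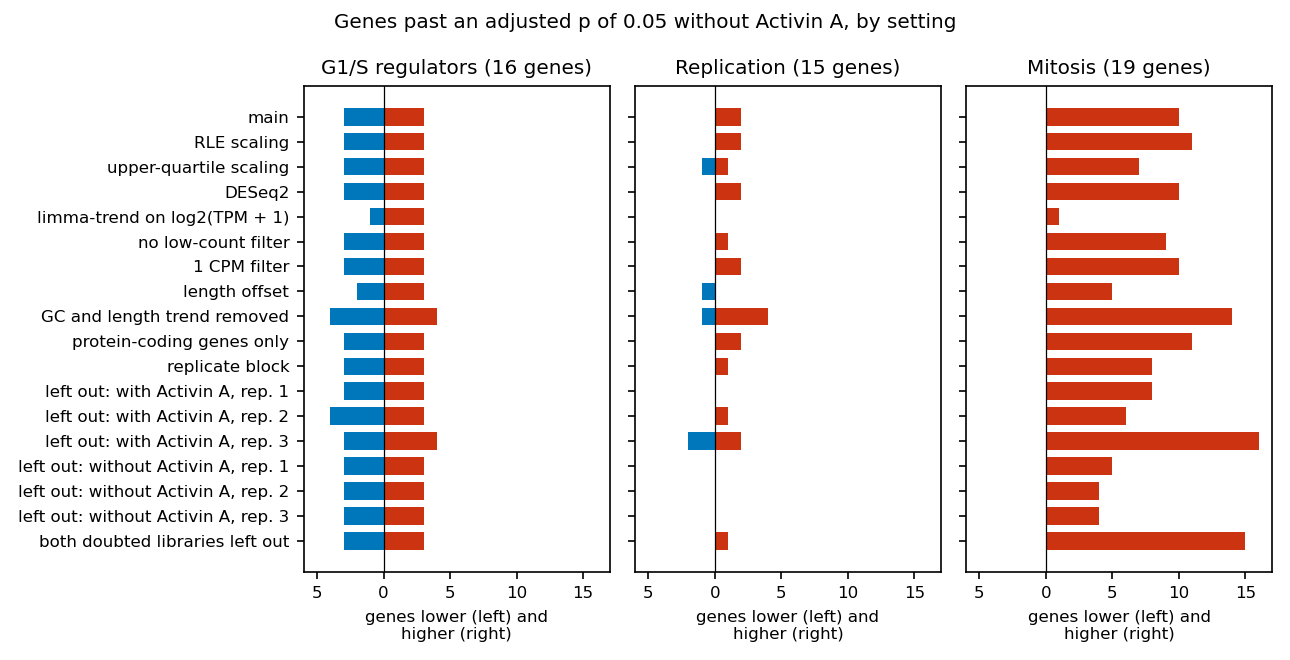
Number of genes that rose (red, right) and fell (blue, left) without Activin A at an adjusted p under 0.05, among 16 G1/S regulators, 15 replication genes and 19 mitosis genes, in the analysis reported (main) and in each of the 17 alternatives (vertical axis). The counts for mitosis genes run from 1 to 16 with none lower, those for replication from 0 to 4 higher and 0 to 2 lower, and those for G1/S regulators from 3 to 4 higher and 1 to 4 lower.

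Other genes of the same machinery were counted from lists by role, also chosen with earlier results of these data known. Of 26 further G1/S genes, 2 rose (7.69%) and 4 fell (15.4%), beside 14.0% and 15.2% of all genes tested. The median log2 change of the 26 was -0.0095. The ubiquitin ligase scaffold Cul1 rose 1.17-fold (edgeR, adjusted p = 0.00302), and the repressor E2f7 1.17-fold (edgeR, adjusted p = 0.0113). Tfdp2, a dimer partner of E2F factors, fell 1.22-fold (77.2, 76.8 and 81.6 against 65.5, 65.6 and 61.6 CPM, edgeR, adjusted p = 0.00133), but its log2 change with a length offset was -0.06 and did not pass. The call of Cul1 was lost with limma-trend and with the length offset, at log2 changes of 0.19 and 0.17 in place of 0.22, while E2f7 reached 0.53 and 0.61 in place of 0.23. The CDK4 and CDK6 inhibitor genes Cdkn2a and Cdkn2b, both low, fell: Cdkn2a was at 4.64, 4.24 and 2.99 CPM in the libraries with Activin A and 2.27, 2.02 and 2.32 CPM in the others (edgeR, adjusted p = 0.00384). Cdkn2b was at 4.03, 4.03 and 5.29 CPM and 3.26, 2.56 and 3.21 CPM (edgeR, adjusted p = 0.0334), a call that was lost on leaving out any library other than replicate 2 with Activin A. The call of E2f7 was lost without replicate 2 of the group without Activin A. The count of 4 that fell became 2 on leaving out replicate 1 with, or replicate 2 or 3 without, Activin A. Over all genes 2350 fell with all libraries, and 1803, 1763 and 1782 on leaving out these.

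Of 54 further replication genes, 5 rose (9.26%) and 2 fell (3.70%), beside 14.0% and 15.2% of all genes tested. Their median level was 70.5 CPM, and of all genes with a mean of 50 CPM or more 22.4% rose and 10.2% fell. The median log2 change of the 54 was -0.0028, and 41 were within 10%. Those that rose with the smallest p were Asf1b, a histone chaperone of the replication fork (1.29-fold, edgeR, adjusted p = 0.00127), Pole, the leading strand polymerase (1.17-fold, edgeR, adjusted p = 0.0043), and Donson, a replisome factor (1.23-fold, edgeR, adjusted p = 0.00885). Dut, which removes dUTP, fell 1.27-fold, from 113, 115 and 124 CPM to 89.2, 93.8 and 93.7 CPM (edgeR, adjusted p = 2.53e-04), a call lost with limma-trend on TPM. Pold2, a subunit of the lagging strand polymerase, also fell (edgeR, adjusted p = 0.0455), with overlapping groups at 122 to 152 CPM with and 118 to 127 CPM without. All 3 calls were lost with limma-trend on TPM and with a length offset, where the log2 change of Pole shrank from 0.23 to 0.07 and 0.05 while that of Asf1b was 0.35 and 0.36 and that of Donson 0.28 and 0.29. Leaving out replicate 1 with or replicate 2 without Activin A also ended the call of Donson. The count of 5 that rose became 9 without replicate 3 of the Activin A group and 3 on leaving out any library of the other group. The count of all genes that rose also grew without the former and shrank without any of the latter. The call of Pold2 was lost with limma-trend on TPM, with a length offset and on leaving out any library other than replicate 3 with Activin A.

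Of 62 further mitosis genes, 22 rose (35.5%) and 1 fell (1.61%), beside 14.0% and 15.2% of all genes tested. Their median level was 108.8 CPM, and of all genes with a mean of 50 CPM or more 22.4% rose and 10.2% fell. The median log2 change of the 62 was 0.12, with 51 estimates above 0. Kif23, a kinesin of the central spindle, was at 94.7, 94.4 and 95.5 CPM with and 121, 128 and 127 CPM without Activin A. With the groups far apart against their spread, it rose 1.32-fold (log2 0.40 ± 0.051 SE, edgeR, adjusted p = 2.9e-05). Foxm1, the factor that switches on many mitosis genes, was at 101.5, 101 and 89.9 CPM with and 119.6, 120.3 and 120.0 CPM without. It rose 1.23-fold (edgeR, adjusted p = 0.00111) and kept its call in all 17 alternatives. Tacc3, a spindle microtubule protein, rose 1.18-fold (edgeR, adjusted p = 0.00173). The 1 gene that fell was Cdca5, sororin, which holds sister chromatids together, from 68.8, 72.4 and 72.1 CPM to 61.3, 57.5 and 54.8 CPM (edgeR, adjusted p = 0.00168). The calls of Kif23, Tacc3 and Cdca5 were lost with limma-trend on TPM. The count of 22 became 12, 16 and 36 on leaving out replicates 1, 2 and 3 with Activin A, and 12, 12 and 11 on leaving out those without. In each case the count of all genes that rose moved in the same direction, as given above.

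Transcript makeup was compared for the 30 members with at least 2 transcripts above 5% of their reads. The share of the leading transcript did not overlap between groups in 5 of them, with the widest difference in Rb1. Among all 6988 tested genes that met the same limits the groups did not overlap in 18.4%, a share near that of the members. The coding transcript Top2a-201 held 88.2, 86.0 and 88.9% of Top2a reads with and 90.3, 90.4 and 90.1% without Activin A. Rrm1-201 held 87.5, 88.7 and 88.2% with and 90.4, 89.2 and 89.2% without. Both shares were higher in every library without Activin A. That of Cdc20-201 was also higher, at 80.2 ± 4.85% with and 84.6 ± 0.446% without (SD, n = 3), and that of Cdk1-202 lower, at 76.4 ± 1.47% with and 73.6 ± 0.0443% without. Each of the 5 exact permutation tests gave p = 0.1, the smallest the design allows, so none could pass 0.05.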

How the data were processed

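RNA-seq libraries of 3 epiblast stem cell samples with and 3 without Activin A were analysed. Per the submitters' processing notes the tools were Salmon, DESeq2 and edgeR; the sources used here give neither genome build nor strand setting. The deposited tables hold Salmon's estimated counts and TPM per transcript, made by the authors from a stranded library of polyadenylated RNA, per the labels' protocols. Here 133399 of 133618 transcripts were matched to GENCODE M21 without their version (unmatched: 0.140% ± 0.00657 of reads, SD, n = 6), summed by gene and rounded. Genes were filtered with filterByExpr (minimum count 10), scaled by TMM and tested with edgeR 4.0.16 (robust quasi-likelihood, R 4.3.3) over all 15448 genes with Benjamini-Hochberg adjustment at 0.05; SE is the log2 change over the root of F. CPM uses TMM library sizes. Depth was 9946521 to 16350923 reads, so low genes such as Cdkn2c are imprecise.

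The 50 members, and the lists of other genes and markers, were chosen with earlier results of these data known. All members are named, and of each further list the 3 genes of smallest p in each direction among those that passed. Family and transcript shares used exact two-sided permutation tests. Promoter sequences are RefSeq's for GRCm38.p6. Shared sequence is the share of a gene's 31-base words found in other annotated genes. Scripts were tested on simulated data. The analysis was repeated with limma-trend (limma 3.58.1) on log2(TPM + 1), DESeq2 1.42.0, upper-quartile or RLE scaling, no filter, a filter of 1 CPM in 3 libraries, a length offset, removal of the GC and length trend (mgcv 1.9.3), protein-coding genes only, a replicate block, each library left out, and 2 libraries left out together: replicate 3 with Activin A, the shallowest, and the doubtfully labelled replicate 1 without.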

Additional observations from a re-analysis of the deposited data

How the results depend on the processing

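The 18 members that passed kept their direction in all 17 alternatives, and 4 of them (Cdk6, Ccnd2, Ccnd3 and Plk1) kept their call in all. Of the 32 that did not pass, 12 changed sign in some alternative. With limma-trend on TPM, 4 members rose and 1 fell, in place of 15 and 3; the 1 that fell was a G1/S regulator, 1 mitosis gene rose and 0 replication genes did. Among further genes, limma-trend gave 1 higher and 1 lower for G1/S, 0 and 0 for replication, and 4 and 0 for mitosis. Over all genes it gave 778 higher and 781 lower. With the length offset 8 members rose, 5 of them in mitosis and 0 in replication, where 1 fell; the further lists gave 1 higher and 1 lower for G1/S, 1 and 1 for replication, and 8 higher for mitosis. Over all genes the length offset gave 1057 higher and 1029 lower. With the GC and length trend removed 22 members rose and 5 fell. Calls over all genes grew too in that setting, to 3025 higher and 2929 lower in place of 2155 and 2350. Among the members 14 mitosis genes rose and none fell, and 4 replication genes rose and 1 fell. The further lists gave 7 higher and 6 lower for G1/S, 10 higher and 4 lower for replication, and 32 higher and 2 lower for mitosis. Upper-quartile scaling, which moved the median of all genes to -0.03, gave 1 replication gene higher and 1 lower, 4 further replication genes lower and 13 further mitosis genes higher. DESeq2 gave 1 higher and 2 lower among further G1/S genes. Without a low-count filter 1 replication gene rose. With both doubtful libraries left out 15 mitosis genes and 1 replication gene rose. Among further genes 9 replication genes rose and 3 fell, and 30 mitosis genes rose and 2 fell. Over all genes, upper-quartile scaling gave 1737 higher and 2702 lower, and DESeq2 1675 and 1690. Without the low-count filter these counts were 2349 and 2387, and without both doubtful libraries 2366 and 2622. In reads in place of TPM, 7 in place of 4 of the 15 family shares did not overlap. In a family of 2 genes the shares mirror each other, so 1 shift counts for both genes. Other causes of these shifts were not tested.

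The replicate numbers gave no sign of pairing. Same-numbered libraries' deviations correlated at -0.0249, -0.0521 and -0.0570, and no library with Activin A correlated best with its own number. With 3 libraries per group this cannot show that the samples were not paired. The replicate block gave 1 replication gene and 8 mitosis genes higher, and 4422 in place of 4505 calls over all genes.

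Leaving out each library in turn gave 7 to 22 members higher and 3 to 5 lower. Over all genes it gave 1483 to 2808 higher and 1763 to 2881 lower. G1/S regulators ranged from 3 to 4 higher and 3 to 4 lower, replication genes from 0 to 2 and 0 to 2, and mitosis genes from 4 to 16 and 0 to 0. Further G1/S genes ranged from 1 to 3 higher and 2 to 4 lower, further replication genes from 3 to 9 and 1 to 3, and further mitosis genes from 11 to 36 and 1 to 2. Family shares without overlap ranged from 4 to 10 and transcript shares from 7 to 10, since fewer libraries overlap less often. Depth limits Cdkn2c, with as few as 8 reads, and E2f2.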
